A study of Schizosaccharomyces pombe with 6 samples.

Results

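The nuclear genes for mitochondrial ribosomal proteins of fission yeast, Schizosaccharomyces pombe, were followed in small RNA libraries whose labels name Argonaute as the source. The genes were found through the systematic ID as nuclear genes with the symbol mrp, mrpl, mrps or rsm followed by digits. That rule met 61 of the 6878 annotated features counted, and 58 of the 61 were protein-coding genes of the mitochondrial ribosome, 35 of its large and 23 of its small subunit. The other 3 matches shared only the symbol and were kept out of all sums. They are rsm1 (SPCC1753.05), described as an RNA export factor, and 2 features under the symbol mrp1 (SPNCRNA.727 and SPNCRNA.82), which are noncoding RNA. The 58 genes lay on all chromosomes, with 22 on I, 24 on II and 12 on III. Their coding sequences were 168 to 1431 bases long.

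The libraries came from wild-type h+ cells of strain 975, held for 24 h in minimal medium EMM lacking nitrogen (24h, 3 libraries) or taken before that change at 0 h (0h, 3 libraries). All cells were grown at 32 °C with adenine, histidine, leucine, lysine and uracil in the growth medium. Lysates were incubated with FLAG-binding magnetic beads, and from the bound RNA a gel slice of 20 to 30 nucleotides was sequenced. The labels name Ago1 as the source of the RNA but no tagged Ago1 allele in the strain. They do not say whether the replicates were separate cultures, so p-values measure the spread between these samples, which may be technical.

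The mitochondrial ribosome makes the few proteins that the mitochondrial genome encodes, most of them subunits of the respiratory chain and ATP synthase. Nearly all of its own proteins are encoded in the nucleus, made in the cytoplasm and imported. Its large subunit carries the peptidyl transferase centre and the tunnel through which the new chain leaves, and its small subunit binds the messenger RNA and reads the codons. In fission yeast, small RNA bound to Argonaute is best known from the centromere repeats, where it guides heterochromatin. Reads over a protein gene are counted here as small RNA from that locus. They are not taken as a measure of its messenger RNA level or of its protein. Whether these reads were bound to Argonaute or were pieces of messenger RNA was not tested.

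The libraries differed widely in depth. Reads assigned to features numbered 54393, 249986 and 758789 at 24h and 48040, 112578 and 145861 at 0h, so that 1 read was worth 1.21 to 14.9 CPM (counts per 1000000 reads, scaled by TMM, edgeR's normalization) at 24h and 8.52 to 30.1 CPM at 0h. Assigned reads were 2.26 to 5.39% of aligned reads at 24h and 0.495 to 0.601% at 0h. Protein-coding genes held 80.5 to 84.6% of assigned reads at 24h and 41.9 to 46.8% at 0h. Because those 2 shares moved with the groups, the sums of the class and of the gene lists set beside it are given on 3 scales.

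Small RNA over the class was sparse in every library. The 58 genes together had 74, 420 and 1037 reads at 24h and 55, 157 and 185 reads at 0h. Over the 3 libraries of a group, a gene had 2 to 151 reads at 24h (median 22) and 0 to 45 reads at 0h (median 4). At 24h, 10 of the 58 genes had 10 reads or fewer in all and none was without a read, while at 0h 45 genes had 10 or fewer and 2 had none. The class made up 1.14% of the protein-coding genes in the files and 0.466% of their coding length. Per coding base it held 0.381 ± 0.0401 times the reads of protein-coding genes as a whole at 24h against 0.609 ± 0.0276 times at 0h (SD, n = 3 each). The genes were thus below the average of coding genes in all 6 libraries, and further below it at 24h.

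How the class differed between the groups depended on what its reads were set against. As a share of assigned reads it was 0.136, 0.168 and 0.137% at 24h and 0.114, 0.139 and 0.127% at 0h, with Wilson 95% intervals of 0.108 to 0.171% for the shallowest 24h library and 0.0880 to 0.149% for the shallowest 0h library. The means were 0.147% ± 0.0183 at 24h and 0.127% ± 0.0125 at 0h (SD, n = 3), and the groups overlapped. As a share of protein-coding reads the class was 0.164, 0.199 and 0.170% at 24h and 0.273, 0.298 and 0.279% at 0h. Every 24h library lay below every 0h library on that scale, with means of 0.177% ± 0.0187 at 24h and 0.284% ± 0.0128 at 0h (SD, n = 3), a ratio of 0.625. Set against aligned reads, the class had 45.2, 90.6 and 30.9 reads per 1000000 at 24h and 5.67, 6.99 and 7.62 at 0h. On this scale every 24h library was higher, by 8.22-fold on the means, where protein-coding genes as a whole were 12.8-fold higher (30492 ± 13927 at 24h and 2383 ± 329 at 0h, SD, n = 3). In libraries from bulk cultures, fewer cells carrying an RNA and less of it per cell cannot be told apart. These sums are given without a test, and intervals cover counting error only.

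**Figure D1:**
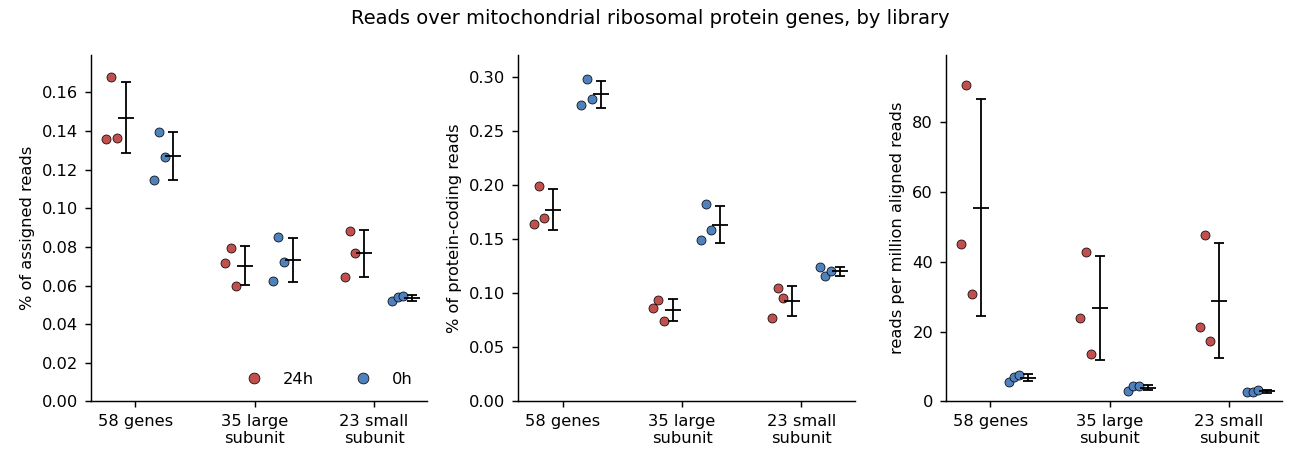
Reads over the 58 genes and over each subunit, as percent of assigned reads, as percent of protein-coding reads and as reads per 1000000 aligned; each dot is a library, and the black bar is the mean ± SD of 3 libraries. The 24h libraries overlap the 0h libraries for the whole class on the first scale, lie below them on the second (0.177% at 24h and 0.284% at 0h) and above them on the third.

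The subunits differed in their shares. Small-subunit genes held 0.0766% ± 0.0120 of the assigned total at 24h against 0.0537% ± 0.00147 at 0h (SD, n = 3), with no overlap between groups. Large-subunit genes held 0.0703% ± 0.0101 at 24h and 0.0732% ± 0.0115 at 0h (SD, n = 3), and the groups overlapped. Of protein-coding reads, large-subunit genes held 0.0848% ± 0.0101 at 24h and 0.163% ± 0.0171 at 0h, a ratio of 0.519, and small-subunit genes held 0.0925% ± 0.0138 at 24h and 0.120% ± 0.00427 at 0h, a ratio of 0.769 (SD, n = 3 each). Per aligned read, large-subunit genes were 6.86-fold and small-subunit genes 10.1-fold higher at 24h, both without overlap. The ratio of reads over large-subunit genes to those over small-subunit genes was 1.11, 0.900 and 0.773 at 24h and 1.20, 1.57 and 1.31 at 0h. Every 24h ratio lay below every 0h ratio.

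This difference between subunits rested on 3 large-subunit genes. mrp20, mrpl12 and mrpl24 together held 5, 15 and 70 reads at 24h and 17, 44 and 47 reads at 0h. They made up 6.76, 3.57 and 6.75% of the class reads at 24h, against 30.9, 28.0 and 25.4% at 0h, with means of 5.69% ± 1.84 at 24h against 28.1% ± 2.75 at 0h (SD, n = 3). Without these 3 genes the ratio of large to small subunit reads was 0.971, 0.833 and 0.653 at 24h and 0.520, 0.852 and 0.725 at 0h. The groups then overlapped and the mean was higher at 24h (0.819 ± 0.160 at 24h and 0.699 ± 0.168 at 0h, SD, n = 3). The large subunit without them held 0.0749% ± 0.0122 of the protein-coding total at 24h against 0.0836% ± 0.0174 at 0h (SD, n = 3), again with overlap. The 55 other genes held 0.153, 0.191 and 0.158% of protein-coding reads at 24h and 0.189, 0.214 and 0.208% at 0h, where the groups also overlapped. Of the assigned total these 55 genes held 0.139% ± 0.0201 at 24h against 0.0914% ± 0.0110 at 0h (SD, n = 3), with every 24h library above every 0h library. The 3 genes were taken out because of their own values, so these sums are descriptions.

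**Figure D2:**
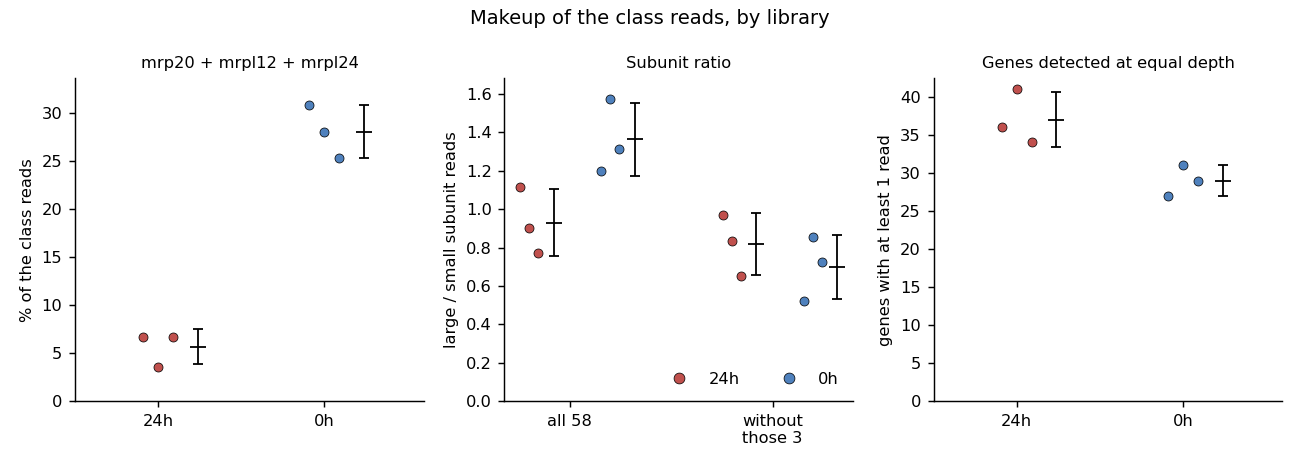
Percent of the class reads held by mrp20, mrpl12 and mrpl24 together, ratio of large to small subunit reads with and without those 3 genes, and genes with at least 1 read when every library is thinned to 48040 reads; dots are libraries and bars the mean ± SD of 3. The 3 genes hold 5.69% at 24h and 28.1% at 0h, and the subunit ratio separates the groups only while they are included.

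mrp20, mrpl12 and mrpl24 were the only members with enough counts for the test with a filter on low counts. Each met its minimum (77.4 CPM before TMM in at least 3 libraries) in all 3 0h libraries and in no 24h library. A gene admitted that way had to be lower at 24h per assigned read. The direction of its filtered test on that scale was thus fixed by the filter and is given as a description. The p-values below come from a fit with no such filter, which took in every feature with a read. There a member's p follows from its change over its SE by the normal curve, so it rests on a spread pooled over features. It is not a measure of that gene's own replicates alone. For mrp20 the unadjusted p was 1.59e-08 there (SE 0.52) and 5.38e-05 with the filter (SE 0.51, edgeR quasi-likelihood test for both).

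mrp20 (SPAC31A2.08, chromosome I) encodes uL23m, which in bacteria sits at the mouth of the exit tunnel. It had 0, 4 and 24 reads at 24h and 7, 21 and 17 reads at 0h, in CPM 0, 10.1 and 28.9 at 24h and 211, 222 and 145 at 0h. A count of 0 in the shallowest 24h library allows up to 44.8 CPM, still below every 0h value. All 24h libraries were lower than all 0h libraries. Without a filter it fell by 2.92 (SE 0.52) on the log2 scale, with an adjusted p of 1.06e-06 (edgeR, quasi-likelihood test, Benjamini-Hochberg over 6207 features), but per aligned read its change was -0.27 (SE 0.65). The filtered fit put it at -3.22 (SE 0.51). It was the highest of the 58 genes by mean CPM.

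mrpl12 (SPCC4B3.09c, chromosome III) encodes bL12m, the stalk protein that in bacteria recruits translation factors to the ribosome. Its reads numbered 3, 4 and 28 at 24h and 5, 13 and 18 at 0h. In CPM these were 44.8, 10.1 and 33.8 at 24h and 151, 137 and 153 at 0h, so the groups stood well apart. Without a filter it fell by 2.13 (SE 0.52, adjusted p = 0.00108, edgeR), whereas its change per aligned read was 0.71 (SE 0.67). The filtered fit put it at -2.47 (SE 0.48).

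mrpl24 (SPBC14C8.10, chromosome II) encodes bL28m, a structural protein of the large subunit. It had 2, 7 and 18 reads at 24h and 5, 10 and 12 reads at 0h. Its CPM values were 29.9, 17.6 and 21.7 at 24h and 151, 106 and 102 at 0h, again without overlap. Without a filter it fell by 2.06 (SE 0.57, adjusted p = 0.00488, edgeR), whereas its change per aligned read was 0.98 (SE 0.66). The filtered fit put it at -2.40 (SE 0.46).

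In the filtered fit of 1716 features 12.8% were called lower and 13.1% higher, and the 3 calls among 3 tested members say nothing about the class. The 3 were also called lower with library totals, where 5.54% of features were, and by DESeq2, where 14.0% were; both used the same filtered features, so these calls add no support. The median log2 change of all features in that fit was -0.02 under TMM, 0.69 with library totals and 3.55 per aligned read. Per aligned read 93.9% of features were called higher and 0.233% lower, and the 3 genes at -0.27, 0.71 and 0.98 were not called either way, all below that median.

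The fit with no filter on low counts reached all 58 genes. There 4 genes were called lower, 0 higher and 54 did not pass, where 5.43% of 6207 features were called lower and 7.72% higher (edgeR, adjusted p below 0.05). The 4 genes were mrp20, mrpl12, mrpl24 and mrpl4 (SPCC4G3.06c). At an unadjusted p below 0.05, 6 of 58 members were lower and 1 higher, beside 615 lower and 868 higher of all 6207 features (edgeR). The share called lower was near that of all features. The median log2 change of the 58 genes was 0.36, beside 0.18 for all features in that fit, with 0.30 for the large and 0.42 for the small subunit. Positive values were found for 35 genes and negative values for 23.

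**Figure D3:**
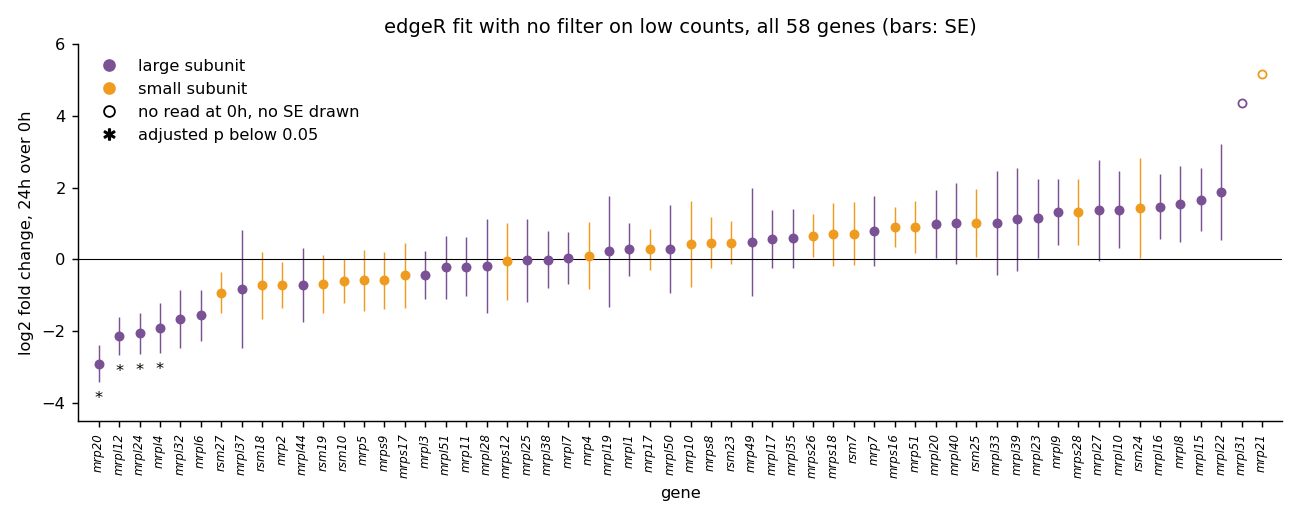
Log2 fold change of TMM-scaled counts, 24h over 0h, for all 58 genes in the fit with no filter on low counts, ordered by value, with SE as bars; open circles are mrp21 and mrpl31, which had no read at 0h and whose fitted values do not measure a size. The 4 genes with an asterisk passed (mrp20, mrpl12, mrpl24 and mrpl4, all of the large subunit), but per aligned read mrpl12, mrpl24 and mrpl4 had higher means at 24h.

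Most members overlapped between the groups. On the TMM scale 6 genes were lower in every 24h library, 4 were higher and 48 overlapped, where 14.3% of all features with a read were lower without overlap and 11.8% higher. The 6 were mrp20, mrpl12, mrpl24, mrpl4, rsm19 and rsm27, and the 4 were mrpl16, mrps28, mrp21 and mrpl31, named here because of these values. Each of the 4 had a count of 0 in 0h replicate 1, which allows up to 90.3 CPM, above all their 24h values. By means, 31 genes were higher at 24h and 27 lower. Per aligned read 57 genes had a higher mean at 24h. The exception was mrp20, at 0.526 reads per 1000000 aligned reads at 24h and 0.786 at 0h. Of the 58 genes 37 were higher at 24h without overlap, where 61.4% of all features were. No member was lower without overlap on that scale, where 0.435% of all features were.

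**Figure D4:**
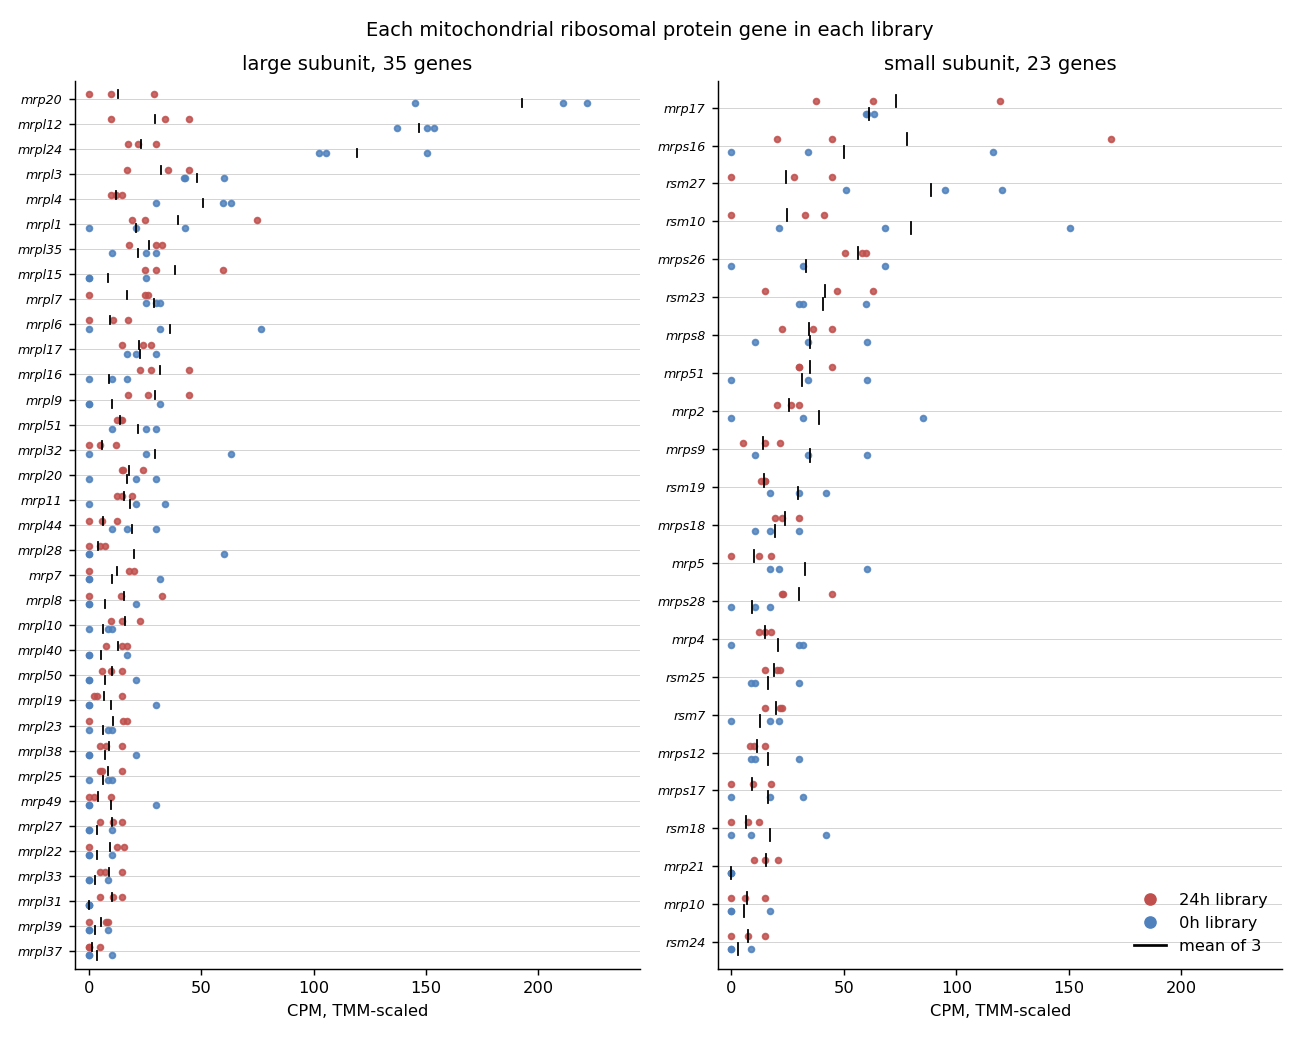
TMM-scaled CPM of each gene in each library, large subunit at left and small subunit at right, ordered by mean over the 6 libraries; the upper dots of a row are 24h, the lower are 0h, and black ticks are means of 3. Apart from mrp20, mrpl12 and mrpl24, large-subunit genes lie at or below 76.7 CPM, that of mrpl6 in 0h replicate 3; mrpl12 and mrpl24, lower at 24h here, were higher per aligned read.

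The other large-subunit genes are given by their places on the ribosome, known from bacterial counterparts, in an order chosen after values were seen and with no test between places. At the exit tunnel, mrpl4 (uL29m), the neighbour of uL23m, had 1, 4 and 10 reads at 24h and 1, 6 and 7 at 0h, or 12.4 ± 2.44 CPM at 24h against 51.0 ± 18.2 CPM at 0h (SD, n = 3). Its groups did not overlap, and its change without a filter was -1.91 (SE 0.70, adjusted p = 0.0485, edgeR). The other tunnel proteins, mrpl22 (uL22m) and mrpl40 (uL24m), had 18 reads each in all at 24h, against 1 and 2 at 0h. The partners of bL12m at the stalk base were also sparse, with 22 reads at 24h and 6 at 0h for mrp11 (uL10m), and 5 reads at 24h and 1 at 0h for mrpl19 (uL11m). The groups of both overlapped in CPM, and with so few reads their contrast with mrpl12 was not tested.

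Of the proteins near the peptidyl transferase centre, uL16m, bL27m and uL3m come from genes with 3 reads each at 0h, close to the median of 4 for all 58 genes. mrpl16 (uL16m) had 3, 9 and 23 reads at 24h and 0, 1 and 2 at 0h, or 31.7 ± 11.6 CPM at 24h against 9.20 ± 8.60 CPM at 0h (SD, n = 3). Its 24h libraries lay above its 0h libraries, but the 0 in 0h replicate 1 allows up to 90.3 CPM, above every 24h value. Without a filter mrpl16 did not pass (adjusted p = 0.309, edgeR). mrp7 (bL27m) had 0, 8 and 15 reads at 24h and 0, 3 and 0 at 0h, with overlap. mrpl9 (uL3m) had 3, 7 and 22 reads at 24h and 0, 3 and 0 at 0h, with overlap. Elsewhere on the subunit, mrpl3 (mL44), a mitochondria-specific protein with a ribonuclease III fold, ranked among the 10 highest members and had 32.3 ± 14.2 CPM at 24h against 48.4 ± 10.3 CPM at 0h (SD, n = 3), with overlap. mrpl31 (mL60) had 12 reads at 24h and none at 0h, which at the floor of 3 counts over the 0h group (12.2 CPM) gives no fold.

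Of the 10 members with the highest mean CPM, 6 were of the small subunit. None of the 6 met the minimum for the test. mrp17 (bS6m, of the platform) had 8, 25 and 31 reads at 24h and 2, 6 and 7 at 0h. Its CPM was 119, 62.9 and 37.4 at 24h and 60.2, 63.3 and 59.7 at 0h, so the 0h libraries were nearly equal and the 24h libraries lay on both sides of them. mrps16 (a counterpart of bacterial bS16, of the body) had 3, 8 and 140 reads at 24h and 0, 11 and 4 at 0h. The 140 reads of 24h replicate 3 were 13.5% of that library's class reads, and the group's CPM was 77.9 ± 79.7 at 24h and 50.1 ± 59.7 at 0h (SD, n = 3), with overlap. Without mrps16, the gene with the most reads, the class share at 24h over that at 0h was 1.12 of assigned reads and 0.605 of protein-coding reads.

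rsm27 (mS33) and rsm10 (uS10m, a protein of the head) had lower mean CPM at 24h but more reads per aligned read. rsm27 had 0, 11 and 37 reads at 24h and 4, 9 and 6 at 0h, or 24.1 ± 22.5 CPM at 24h against 88.9 ± 35.1 CPM at 0h (SD, n = 3), with no overlap, yet without a filter its change of -0.94 (SE 0.57) did not pass (adjusted p = 0.305, edgeR). A count of 0 in the shallowest 24h library allows up to 44.8 CPM, below every 0h value. Per 1000000 aligned reads rsm27 had 1.16 reads at 24h and 0.353 at 0h, and rsm10 had 1.27 at 24h and 0.311 at 0h. rsm10 had 0, 13 and 34 reads at 24h and 5, 2 and 8 at 0h, with overlap. mrps26, whose product is described only as Mrps26, had 56.1 ± 4.81 CPM at 24h against 33.3 ± 34.1 CPM at 0h (SD, n = 3). rsm23 (mS29, related to the human GTP-binding protein DAP3) had 41.6 ± 24.5 CPM at 24h against 40.5 ± 16.6 CPM at 0h (SD, n = 3), so its groups overlapped almost wholly.

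Other small-subunit genes had fewer reads. mrp21 (bS21m) had 1, 4 and 17 reads at 24h and none at 0h, which is at least 1.39-fold higher than the floor of 3 counts taken over all 0h libraries. mrps28 (uS15m) had 3, 9 and 19 reads at 24h and 0, 1 and 2 at 0h, and rsm19 (uS19m) had 1, 6 and 11 reads at 24h and 1, 4 and 2 at 0h. In CPM, mrps28 was higher at 24h and rsm19 lower, both without overlap. For mrps28 the count of 0 in 0h replicate 1 allows up to 90.3 CPM, above all its 24h values. The separation of rsm19 rested on few reads, with 1 in 24h replicate 1, 1 in 0h replicate 1 and 2 in 0h replicate 3. mrps12, whose product uS12m lies at the decoding centre, had 11.1 ± 3.38 CPM at 24h against 16.4 ± 11.9 CPM at 0h (SD, n = 3), with overlap.

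Set against coding length, the order of the genes changed between the groups. At 24h the highest were mrps16 at 268, mrp17 at 218 and rsm27 at 85.5 CPM per kb of coding sequence. At 0h they were mrp20 at 396, rsm27 at 315 and mrpl12 at 282 CPM per kb, with mrpl24 next at 225. With all 24h libraries rsm27 was level with mrps26 at 85.4 CPM per kb. The 24h order rested on replicate 3, without which the highest were mrp17 at 271, mrps16 at 112 and mrps26 at 89.5 CPM per kb. rsm27 then stood at 49.1 CPM per kb, below several other members, such as mrp2 at 78.6 and mrps8 at 73.5. The median gene stood at 28.5 CPM per kb at 24h and 28.2 at 0h.

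More of the genes had a read at 24h, as did protein-coding genes as a whole. After thinning each library to 48040 reads, 36, 41 and 34 of the 58 genes had a read at 24h and 27, 31 and 29 at 0h. The thinned class totals were 63, 87 and 59 reads at 24h and 55, 70 and 56 at 0h. Of all 5107 protein-coding genes 3690, 4076 and 3743 had a read at 24h and 3290, 3620 and 3578 at 0h at that depth, with 39931, 40806 and 38657 thinned coding reads at 24h and 20118, 22366 and 21748 at 0h. Before thinning, 38, 58 and 57 genes had a read at 24h and 27, 46 and 43 at 0h. The 5 highest genes of each thinned library held 30.7% ± 2.36 of its class total at 24h against 41.4% ± 6.80 at 0h (SD, n = 3).

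Overlap with other genes was read from the annotation, where 37 of the 58 genes overlap a counted gene on the opposite strand and 8 overlap one on the same strand. mrp20, mrpl12 and mrpl24 each overlap an opposite-strand gene. apm4, beside mrp20, had 0, 4 and 7 reads at 24h and 2, 6 and 2 at 0h, in CPM 0, 10.1 and 8.44 at 24h and 60.2, 63.3 and 17.05 at 0h. Like mrp20, it was lower in every 24h library on that scale, though the count of 0 allows up to 44.8 CPM, and its part in the values of mrp20 was not tested. lsg1, beside mrpl12, had 0, 7 and 8 reads at 24h and 0, 2 and 2 at 0h. SPBC14C8.11c, beside mrpl24, had 1, 3 and 2 reads at 24h and 0, 0 and 1 at 0h. None of the 3 neighbours had enough counts for the test. The 37 overlapping genes, with 65.5% of the class coding length, held 64.9, 68.6 and 62.2% of class reads at 24h and 81.8, 73.9 and 80.0% at 0h. Without mrp20, mrpl12 and mrpl24, the other 34 held 62.3, 67.4 and 59.5% of the remaining reads at 24h and 73.7, 63.7 and 73.2% at 0h, and the groups overlapped.

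Other nuclear genes for the mitochondrion were read in the same fit. A further 20 genes described as mitochondrial ribosomal proteins carry other symbols, such as img2, yml6 and rml2. They held 0.0544% ± 0.0142 of the protein-coding total at 24h against 0.0988% ± 0.0207 at 0h (SD, n = 3), a ratio of 0.550 without overlap. Of the assigned total the ratio was 1.02 with overlap, and per aligned read these genes were 7.30-fold higher without overlap. None of the 20 met the minimum count. With no filter 19 of them could be fitted, of which 1 was lower and 0 higher (edgeR). Of all features in that fit 5.43% were lower and 7.72% higher. Of 4 genes described as mitochondrial translation factors only mef1, for an elongation factor, was tested, and it did not pass (0.17, SE 0.54, adjusted p = 0.843, edgeR).

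Of 33 genes for nuclear subunits of the respiratory chain and ATP synthase, 18 were tested, with 3 called higher (16.7%, where 13.1% of all tested features were) and 0 called lower. Their median was 0.73, beside -0.02 for all tested features. cyt1, for cytochrome c1, rose by 1.58 (SE 0.38, adjusted p = 0.0137, edgeR), with 218 ± 44.7 CPM at 24h against 68.8 ± 23.2 CPM at 0h (SD, n = 3). It met the minimum in all 3 24h libraries but in only 1 0h library, so its 24h values alone admitted it. Without a filter cyt1 rose by 1.91 (SE 0.47, adjusted p = 0.00121, edgeR). qcr7, for a subunit of the same complex, met the minimum through its 24h libraries alone, so its call (1.44, SE 0.41) was fixed in direction by the filter. Without a filter qcr7 rose by 1.76 (SE 0.52, adjusted p = 0.00910, edgeR). cyc1, for cytochrome c, rose by 1.07 (SE 0.36, adjusted p = 0.0470, edgeR). The calls numbered 1 without 24h replicate 3, 1 without 0h replicate 2 and 0 without 0h replicate 3.

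Of protein-coding reads, the respiratory list held 0.707% ± 0.0749 at 24h and 0.596% ± 0.0770 at 0h (SD, n = 3), a ratio of 1.19 with overlap, where the ratio of the mitochondrial ribosomal protein genes was 0.625 without overlap. The respiratory list was 2.19-fold higher of assigned reads and 15.1-fold higher per aligned read, both without overlap. Cytoplasmic ribosomal protein genes held 4.30% ± 1.03 at 24h and 5.81% ± 0.568 at 0h (SD, n = 3), a ratio of 0.739 with overlap, while they were 1.37-fold higher of assigned reads and 10.2-fold higher per aligned read, both without overlap. Of 126 tested among 141, 7 were called lower (5.56%, where 12.8% of all features were) and 0 higher, with a median of -0.19. Per aligned read 0 were lower and 124 higher (98.4%, where 93.9% of all features were). Those with the smallest p were rpl3801 (-3.09, SE 0.45, adjusted p = 0.00161, edgeR) and rps2501 (-2.04, SE 0.45, adjusted p = 0.00846, edgeR), whose changes per aligned read were 0.17 and 1.11. rps2501 met the minimum in all 3 0h libraries but in only 1 24h library, so its 0h values alone admitted it. Without a filter rps2501 was at -1.70 (SE 0.41, adjusted p = 0.000917, edgeR). Without 24h replicate 1 or 0h replicate 2 the calls of lower genes numbered 3, and without 24h replicate 2 or 0h replicate 1 they numbered 4. The 36 features of the mitochondrial genome, source of the ribosome's RNA and messages, had 30 tested and a median of -0.57, which was -1.35 without 24h replicate 3, 0.16 without 0h replicate 3 and 0.05 with library totals. The feature called lower was SPMIT.08 (-1.23, SE 0.36, adjusted p = 0.0297, edgeR), which per aligned read was higher (adjusted p = 0.00894, edgeR). The calls of lower features numbered 7 without 24h replicate 3, 2 without 0h replicate 1 and 0 without any other single library. SPMITTRNAMET.02 was at -2.19 (SE 0.76) and did not pass (adjusted p = 0.0551, edgeR). Without a filter SPMIT.08 did not pass (adjusted p = 0.148, edgeR), and SPMITTRNAMET.02 did, at -1.89 (SE 0.51, adjusted p = 0.00533, edgeR). SPMITTRNAMET.02 had 7, 55 and 303 reads at 0h, so its 0h mean rested mostly on replicate 3. Its CPM was 243 ± 151 at 24h and 1125 ± 1276 at 0h (SD, n = 3), and the groups overlapped.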

How the data were processed

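The authors deposited raw, unnormalized read counts for each of 6 libraries, over 6878 features, and the 5 HTSeq tally lines were kept out of totals and tests. Cutadapt, Bowtie2 2.1.0, HTSeq 0.6.1 and the build ASM294v2 are the tools and build per the submitters' processing notes, and settings are not given in the sources used here. The tally lines show that 90.3 to 96.4% of aligned reads per library fell in the HTSeq tally of low alignment quality, where reads that map equally well to several places also go. A count was found for 492 (85.4%) of 576 features that lie wholly within the span of an opposite-strand feature, as counting by strand would give. The spans came from a later build and include introns, so this share does not settle the setting. Which strand was taken as the feature's own is not given in the sources used here.

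Names, descriptions, coding lengths, chromosomes and overlaps came from the RefSeq annotation of ASM294v3 (6706 IDs matched directly, 16 through an older ID, 156 not). Since that is a later build, no coordinates or sequences are given. Subunits came from the descriptions, or from the symbol where these named none. The mitochondrial translation list reached 4 genes because descriptions of the tRNA-charging enzymes do not name the mitochondrion.

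The whole table was fitted in R 4.3.3 with edgeR 4.0.16, using TMM scaling, filterByExpr (minimum count 10), robust quasi-likelihood dispersion with group as the only term, a two-sided test and Benjamini-Hochberg adjustment over 1716 features at a threshold of 0.05. For the 3 members this filter admitted, p-values are quoted from the fit repeated without the filter, over 6207 features, a choice made after the data were seen. TMM factors were computed anew in that fit. Its changes are thus not on the same scale as the CPM values, which use the factors of the filtered fit. The filtered fit was also run on simulated data, with changes set only in features with more reads than mrp20, mrpl12 and mrpl24. The fit without the filter was not simulated, so that run does not bear on the p-values quoted for members. SE is the log2 change divided by the square root of F. Aligned reads are assigned reads plus the tallies of aligned reads. No replicate pair within a group agreed within sampling noise (chi-square per degree of freedom 5.72 to 28.3). A count of 0 is read against 3 counts, and intervals are Wilson 95%.

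The members, lists and tests were chosen with earlier results of these data known, and mrp20, mrpl12 and mrpl24 were the examples given with the rule. Named genes are the members past the test and the extremes among those tested, the 10 highest by mean CPM, the 3 highest per kb in each group, and the 2 smallest p of each list; the grouping by place on the ribosome and other named genes were chosen after values were seen. Alternatives were other scalings, filters, DESeq2 1.42.0, thinning, a replicate block and leaving out each library. DESeq2 was run on the features of the main test.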

Additional observations from a re-analysis of the deposited data

How the results depend on the processing

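Depth limits the class: no member met a minimum count of 30 or the minimum after thinning, so those settings gave no value for the members. The calls of lower members numbered 3 with the replicate block, DESeq2's size factors, library totals, DESeq2 and without each library (3 to 3). In these settings the filter fixed the direction of the 3 genes. The calls numbered 4 with no filter on low counts and 0 per aligned read, where mrp20 was at -0.27 and mrpl24 and mrpl12 at 0.98 and 0.71. The number of higher members was 0 in every setting that gave a value.

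The median of the tested members, -2.47, was -1.85 with library totals, 0.71 per aligned read and 0.36 with no filter, which fits all 58 genes in place of 3; it ran from -2.81 to -1.21 without each library, the last without 0h replicate 1, where 6 members were tested. The class ratio of 24h to 0h was 1.16 for assigned reads (1.07 to 1.22 without each library), 0.625 for protein-coding reads (0.588 to 0.649) and 8.22 for aligned reads (5.63 to 10.0). With every symbol match, which adds the noncoding mrp1, it was 1.36 of assigned and 0.736 of protein-coding reads. Without mrp20, mrpl12 and mrpl24, an alternative chosen after seeing the data, it was 1.52 and 0.821, and the ratio of subunit ratios, 0.682 with all genes (0.614 to 0.740 without each library), was 1.17.

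For the other lists, library totals put 9 of 18 respiratory genes, 8 of 126 cytoplasmic ribosomal genes and 1 of 30 mitochondrial genome features higher. Of all features 33.1% were higher there. On that scale 2 cytoplasmic genes and 0 mitochondrial features were lower, where 5.54% of all features were. Per aligned read 18, 124 and 27 were higher, where 93.9% of all features were, and so was mef1 (1 of 1 translation gene). There 0 cytoplasmic genes and 0 mitochondrial features were lower, where 0.233% of all features were. With no filter 8 of 33 respiratory and 2 of 141 cytoplasmic genes were higher, where 7.72% of all features were. In that fit 3 cytoplasmic genes and 1 of 19 other mitoribosome genes were lower, where 5.43% of all features were. With a minimum count of 30 and after thinning, 0 of 6 and 1 of 7 respiratory genes were higher, where 18.4 and 15.3% of all features were. In both settings 0 mitochondrial features were lower, where 14.0 and 12.5% of all features were. DESeq2 called 2 of 30 mitochondrial features lower, where 14.0% of all features were. Without each library the respiratory rises ran from 0 to 3, the cytoplasmic falls from 3 to 5 and the mitochondrial falls from 0 to 7. The cause of these shifts was not tested.

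The replicate numbers were not taken as pairs because the labels do not say that they mark a shared batch. Deviations from the group means of same-numbered libraries correlated at 0.05, 0.14 and 0.17, each the highest for its library. These values do not settle whether the numbers mark pairs. With the replicate block 279 features were higher and 271 lower, against 224 and 220 without it; 3 members stayed lower, 1 cytoplasmic gene was higher and 8 mitochondrial features were lower.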
